A study of Mus musculus with 12 samples.

Results

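Myc and its Max-network partners were followed in RNA-seq of kidney tissue from a mouse model of polycystic kidney disease. The set held 8 genes, chosen by symbol as Myc, Mycn, Max, Mxd1, Mxd3, Mxd4, Mxi1 and Mnt, out of 35275 genes in the deposited count table. Each of the 8 symbols had 1 row in the table. Kidney tissue (the right kidney was quartered and frozen) came from 12 C57BL/6J mice aged 6 months, with 4 mice in each of 3 groups and 2 females and 2 males per group. WT mice carried no engineered allele. RC/RC mice were homozygous for the hypomorphic Pkd1 p.R3277C missense allele, and RC/RC:Casp1KO mice carried that same homozygous allele together with a homozygous TALEN-made deletion in Casp1, bred from 1 line. The count columns give a mouse but no sex and no replicate number. Males and females were analysed together, and the sex of each library was not inferred from its counts. Mice are numbered here in the order of the columns, without any pairing between groups. Between 18019819 and 24869454 reads were assigned to genes per mouse.

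The network is a set of basic helix-loop-helix leucine zipper transcription factors that bind DNA as dimers with Max. Myc and Mycn dimerize with Max to activate genes for ribosome production, nucleotide and polyamine synthesis and cell cycle entry, whereas Mxd1, Mxd3, Mxd4, Mxi1 and Mnt compete for Max and recruit Sin3-histone deacetylase complexes to repress many of the same genes. Both kinds of dimer recognize the E-box CACGTG. In the kidney, Myc has long been linked to cyst growth, and its overexpression in renal epithelium produces cysts in mice.

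The labels were first checked against the data. Casp1, which encodes the inflammatory protease disrupted in the third group, was measured at 2.05, 1.29, 1.31 and 1.41 CPM in WT mice (CPM, reads of a gene scaled to library size with TMM factors). It stood at 3.33, 3.86, 4.24 and 2.62 CPM in RC/RC mice and at 0.382, 0.667, 0.665 and 1.06 CPM in RC/RC:Casp1KO mice. Every RC/RC:Casp1KO mouse was below every mouse of the other groups. Casp1 was higher in RC/RC than in WT kidneys (log2 fold change 1.21, edgeR adjusted p = 0.0142) and lower in RC/RC:Casp1KO than in RC/RC kidneys (-2.35, edgeR adjusted p = 0.00514). In RC/RC:Casp1KO against WT kidneys its log2 fold change was -1.12, and it was not called. Pkd1 averaged 53.0 ± 13.8 CPM in WT, 55.2 ± 9.85 in RC/RC and 71.6 ± 12.6 in RC/RC:Casp1KO kidneys (SD, n = 4), and as a missense change the RC allele is not checked by these counts. The kidney identity genes were abundant in every library, led by the proximal tubule phosphate transporter Slc34a1.

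RC/RC mouse 2 stood apart from the other libraries in its adipose markers Adipoq, Plin1, Cidec and Ucp1. Their summed level was 338 CPM there, against 37.9 CPM in RC/RC mouse 4, 18.8 and 12.7 CPM in RC/RC:Casp1KO mice 2 and 3, and 9.45 CPM in WT mouse 3. The other 7 mice were at most at 0.552 CPM, Cidec was the most abundant of the 4 genes in every library, and between 1 and 3 of the 4 genes were at 0 in each of these 7 mice. The call of every gene named from the lists was therefore also made without RC/RC mouse 2, and calls that changed are named or counted where they stand. Fewer of all genes were called without that mouse. In RC/RC against WT, 997 were higher and 273 lower, against 1487 and 484 with all mice. In RC/RC:Casp1KO against RC/RC, 618 were higher and 136 lower, against 1116 and 681. Leaving out other single mice gave between 58 and 1300 called lower there.

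The libraries also stood in pairs within groups. Over all genes, the chi-square divided by its degrees of freedom was 17.7 between WT mice 1 and 2 and 16.4 between WT mice 3 and 4, against 89.8 to 127 across these pairs. In RC/RC:Casp1KO it was 15.7 between mice 1 and 2 and 31.8 between mice 3 and 4, against 67.1 to 93.4 across them. RC/RC mice 3 and 4 were the closest of their group (37.2), and the other RC/RC values ran from 67.6 to 128. The columns carry no sex or batch. No fit took these pairs into account, so every call here rests on fits that ignore them, and their part in the results was not tested.

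The repressor genes dominated the network in every group. Scaled by gene length (FPKM, reads scaled to gene length and to all reads counted), Mxd4 was the most abundant member, at 33.7 ± 2.26 FPKM in WT, 41.8 ± 5.81 in RC/RC and 33.9 ± 3.36 in RC/RC:Casp1KO kidneys (SD, n = 4). Max followed at 24.1 ± 1.71, 27.0 ± 3.62 and 23.1 ± 2.37 FPKM in the same order of groups. Below them lay Mxi1, from 9.40 to 13.0 FPKM over the 12 mice, then Mnt, from 5.35 to 10.4 FPKM, and Mxd1, from 3.23 to 5.23 FPKM. In WT kidneys Myc came next with 2.27 ± 0.646 FPKM, Mycn with 1.11 ± 0.339 FPKM and Mxd3 last with 0.299 ± 0.113 FPKM. Within WT the ranges of neighbouring genes in this order did not overlap except for Myc and Mycn, where Myc was higher in 3 of 4 mice. The order was the same in RC/RC:Casp1KO kidneys, with no overlap between neighbours.

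RC/RC kidneys had another order. There Myc reached 6.62 ± 1.94 FPKM and moved above Mxd1 in 4 of 4 mice, although their ranges over the group overlapped. It also overlapped Mnt, which was higher than Myc in 2 of 4 RC/RC mice. Mycn in RC/RC kidneys was at 2.22 ± 0.612 FPKM and Mxd3 at 0.900 ± 0.211 FPKM. The rest of the order was as in WT.

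**Figure D1:**
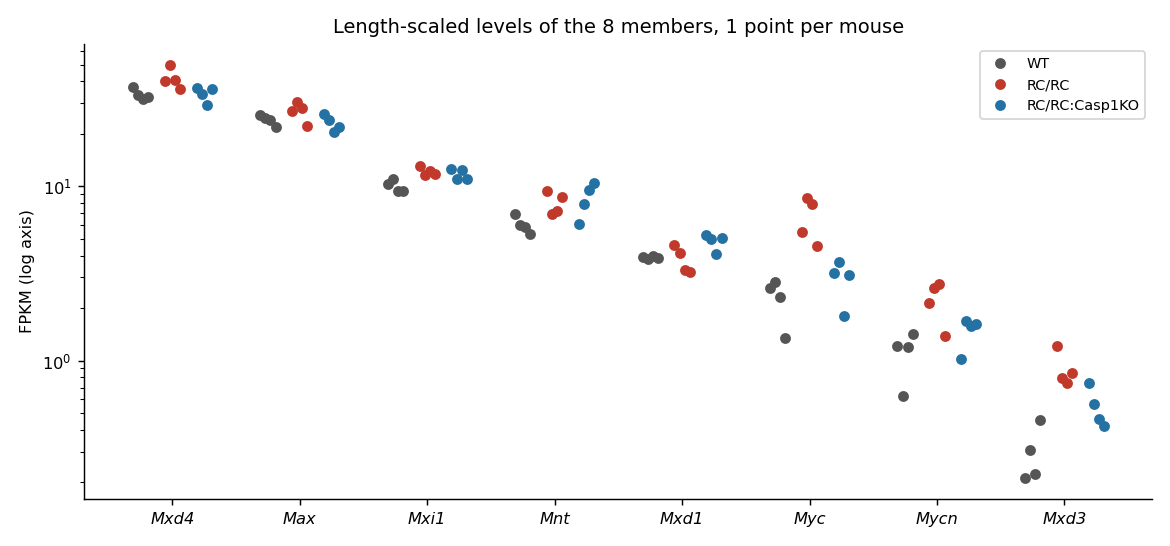
Each point is the FPKM of 1 gene in 1 mouse on a log axis, coloured by group, with the 8 genes ordered by their WT mean. Mxd4 and Max lie at the top in all 12 mice and Mxd3 at the bottom, and Myc is the gene that changes its place in RC/RC kidneys.

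As a share of the summed FPKM of the 8 genes, Myc and Mycn together made up 4.15% ± 0.361 in WT, 8.52% ± 1.77 in RC/RC and 5.06% ± 0.809 in RC/RC:Casp1KO kidneys (SD, n = 4). Set against the 5 repressor genes, there were 6.27 ± 0.641 FPKM of Myc plus Mycn per 100 FPKM of repressor in WT and 13.2 ± 3.25 in RC/RC kidneys. The value was 7.41 ± 1.29 in RC/RC:Casp1KO kidneys. The lowest RC/RC mouse had 9.77 and the highest mouse of the other groups 9.16, so RC/RC did not overlap them. Max remained in excess of both Myc proteins' transcripts in every mouse, with Myc plus Mycn at 14.0 ± 0.928, 32.3 ± 5.65 and 19.1 ± 3.25 FPKM per 100 FPKM of Max in WT, RC/RC and RC/RC:Casp1KO kidneys. Transcript ratios do not give protein or dimer ratios.

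The 8 genes lie apart in the genome, and the table gives mm10 coordinates for each whole gene. Myc spans chr15:61985341-61990374 on the plus strand and Mycn chr12:12936096-12941914 on the minus strand. Max spans chr12:76937269-76962248 on the minus strand and Mnt chr11:74830920-74845725 on the plus strand. Mxd1 spans chr6:86647044-86669159, Mxd3 chr13:55325168-55329758 and Mxd4 chr5:34173887-34187720, all on the minus strand, and Mxi1 spans chr19:53310506-53375810 on the plus strand. Mxd3 overlaps Prelid1, a far more abundant gene on the other strand, and the strand setting of the counting is not given in the sources used here, so reads of the Mxd3 and Prelid1 genes cannot be told apart where they overlap. A transcript search in a later GENCODE annotation found stretches of at least 100 bases with at least 95% identity to other genes for every member but Mxd1. The longest was that of Mxd3 with Prelid1, at 482 bases, and Mxi1 matched a large number of genes, so counts of these members may include or lose some reads of other genes.

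RefSeq promoter windows of the same build (GRCm38.p6, 300 bases from 250 before to 50 after the annotated start) were matched for 7 members. The E-box letters CACGTG, which read the same on both strands, occurred in the windows of Max, Mnt and Mxd4, and in 7.15% of all 32851 windows in the table. They are shown because they are the letters that Myc-Max and Mxd-Max dimers bind, and because these 3 genes belong to the network itself. Each line is written 5′ to 3′ on the gene's strand with CACGTG in capitals. The Mnt and Mxd4 lines lie upstream of the start, and in the Max line the E-box straddles it.
Max, chr12:76962246-76962281, minus strand, E-box beginning 3 bases before the start: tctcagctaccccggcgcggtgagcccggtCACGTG
Mnt, chr11:74830771-74830836, plus strand, E-box 123 bases before the start: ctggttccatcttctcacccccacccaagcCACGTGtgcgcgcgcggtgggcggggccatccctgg
Mxd4, chr5:34187894-34187959, minus strand, E-box 219 bases before the start: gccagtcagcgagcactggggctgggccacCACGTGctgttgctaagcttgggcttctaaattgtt
A match of letters is a description and not a binding site. No window of Mycn, Mxd1, Mxd3 or Mxi1 held these letters.

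The first comparison, RC/RC against WT, asks what the Pkd1 allele does to the network in kidneys with intact Casp1. Myc and Mxd3 were higher in RC/RC kidneys, and the other 6 members were not called. Myc was measured at 6.43, 7.24, 5.73 and 3.44 CPM in WT mice and at 12.04, 19.6, 19.5 and 11.3 CPM in RC/RC mice. Every RC/RC mouse was above every WT mouse, with mice 2 and 3 well above mice 1 and 4. The log2 fold change was 1.45 with a standard error of 0.27, or 2.73-fold (edgeR quasi-likelihood test, Benjamini-Hochberg adjusted p = 0.00899).

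Mxd3, a repressor found mainly in dividing cells, was measured at 0.381, 0.571, 0.402 and 0.848 CPM in WT mice, against 1.95, 1.32, 1.34 and 1.54 CPM in RC/RC mice. The groups did not overlap, but the values rest on 8 to 18 reads per WT library and 25 to 51 per RC/RC library. The log2 fold change was 1.48 with a standard error of 0.33 (edgeR adjusted p = 0.0179), and the call was lost without WT mouse 1 (1.33, edgeR adjusted p = 0.0501) or WT mouse 3 (1.32, edgeR adjusted p = 0.0529). The overlap with Prelid1 bears on this value.

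Across all genes tested in this comparison, 9.76% were called higher and 3.18% lower, against 2 and 0 of the 8 members. With 1 mouse left out, the 1487 genes called higher became 954 to 1786 and the 484 called lower became 208 to 654. Mycn, the Myc protein best known from the developing kidney, stood at 3.34, 1.81, 3.32 and 4.05 CPM in WT and at 5.28, 6.67, 7.57 and 3.86 CPM in RC/RC mice. Only RC/RC mouse 4 lay within the WT range, and the log2 fold change of 0.90 with a standard error of 0.29 did not pass the test (edgeR adjusted p = 0.0782). It passed with DESeq2 (0.88, DESeq2 adjusted p = 0.0301), in a fit of all 12 mice (0.90, edgeR adjusted p = 0.0470) and without RC/RC mouse 4 (1.05, edgeR adjusted p = 0.0399). Each of these fits also called more of all genes higher, 1997, 1789 and 1786 against 1487 in the main fit. Max, the shared partner, differed by 0.07 on the log2 scale with a standard error of 0.11, and its sign turned without RC/RC mouse 2. The remaining repressors had log2 fold changes of 0.33 for Mnt, 0.22 for Mxd4, 0.18 for Mxi1 and -0.13 for Mxd1, with edgeR adjusted p values from 0.124 to 0.461.

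**Figure D2:**
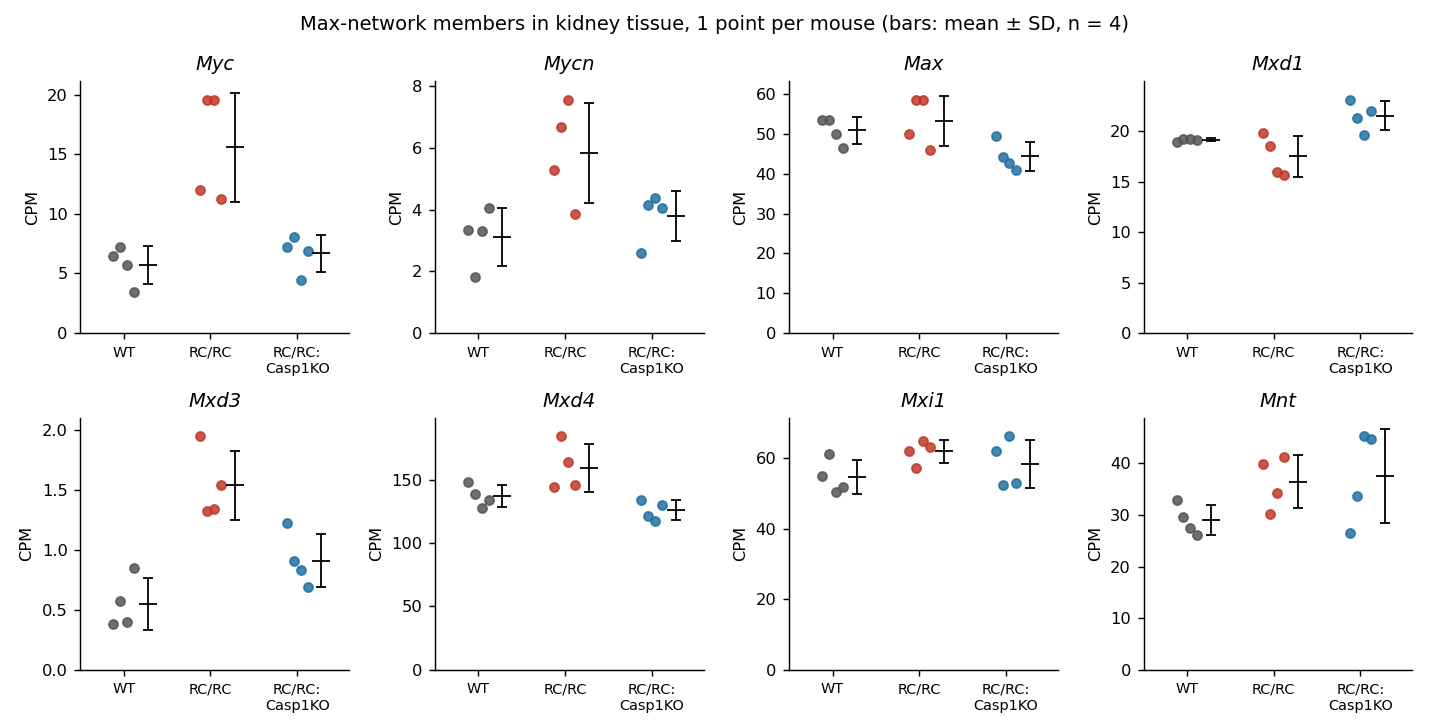
CPM of the 8 members, with 1 point per mouse, the group means and SD bars (n = 4) and each axis starting at 0. In the Myc panel the 4 RC/RC mice lie between 11.3 and 19.6 CPM, above all WT and RC/RC:Casp1KO mice.

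The second comparison, RC/RC:Casp1KO against RC/RC, asks what the loss of Casp1 changes in kidneys that all carry the Pkd1 allele. Myc was lower in RC/RC:Casp1KO kidneys and was the only member called. It was measured at 7.26, 8.10, 4.49 and 6.90 CPM in RC/RC:Casp1KO mice, below every RC/RC mouse. Myc fell by 1.23 on the log2 scale with a standard error of 0.25 (edgeR adjusted p = 0.0191). The call did not hold without either of the RC/RC mice with high Myc. Without RC/RC mouse 2 the log2 fold change was -1.07 (edgeR adjusted p = 0.0512), and without RC/RC mouse 3 it was -1.10 (edgeR adjusted p = 0.0601). Fewer genes were called in these 2 fits, 618 higher and 136 lower without mouse 2 and 373 and 65 without mouse 3, against 1116 and 681 with all mice. The same RC/RC mice serve both comparisons, so a high RC/RC value raises the first difference and lowers the second. Females and males were not separated here. By qRT-PCR, the paper reported lower Myc with Casp1 knockout in RC/RC females and no effect in males.

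Of all genes tested here, 7.23% were called higher and 4.41% lower, against 0 and 1 of the 8 members. These shares depended on single mice, since with 1 mouse left out the 1116 genes called higher became 373 to 1489 and the 681 called lower became 58 to 1300. Mxd4 was measured at 134, 121, 117 and 130 CPM in RC/RC:Casp1KO and at 144, 184, 164 and 146 CPM in RC/RC mice. The groups did not overlap, yet the log2 fold change of -0.35 did not pass the main test (edgeR adjusted p = 0.0742). It passed with DESeq2 (-0.35, DESeq2 adjusted p = 0.0298), in the fit of all 12 mice (-0.34, edgeR adjusted p = 0.0492) and without RC/RC mouse 1 (-0.41, edgeR adjusted p = 0.0437). Each of these fits also called more of all genes lower, 1426, 896 and 1300 against 681 in the main fit. Mxd3 was measured at 1.22, 0.905, 0.831 and 0.690 CPM in RC/RC:Casp1KO mice, below all RC/RC mice, with a log2 fold change of -0.76 (edgeR adjusted p = 0.0950). Mycn had a log2 fold change of -0.63 (edgeR adjusted p = 0.128) and Max of -0.27 (edgeR adjusted p = 0.128). Mxd1 went the other way, at 0.29 (edgeR adjusted p = 0.0996). Mxi1 at -0.09 and Mnt at 0.03 were the smallest differences, with standard errors of 0.11 and 0.18, and the sign of Mnt turned without RC/RC mouse 2 and without RC/RC:Casp1KO mouse 3 or 4.

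In the third comparison, RC/RC:Casp1KO against WT, which asks what remains different from normal kidneys when both alleles are present, no member was called. Here 1.13% of all genes tested were called higher and 0.893% lower. These shares too depended on single mice, since the 174 genes called higher became 57 to 305 and the 137 called lower 49 to 242. At an unadjusted p under 0.05, 0 of the 8 members passed in edgeR, where 21.8% of all genes did. DESeq2 also called 0 of the 8 after adjustment, with 800 genes called higher and 590 lower of 18000. Myc differed by 0.23 with a standard error of 0.26 (edgeR adjusted p = 0.618), and its group ranges overlapped. Mxd3 had the largest log2 fold change of the 8, 0.73 with a standard error of 0.35 (edgeR adjusted p = 0.255). Mxd1 was at 23.1, 21.4, 19.7 and 22.0 CPM in RC/RC:Casp1KO and at 19.0, 19.2, 19.3 and 19.2 CPM in WT mice. These ranges did not overlap, with a log2 fold change of 0.17 (edgeR adjusted p = 0.242).

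**Figure D3:**
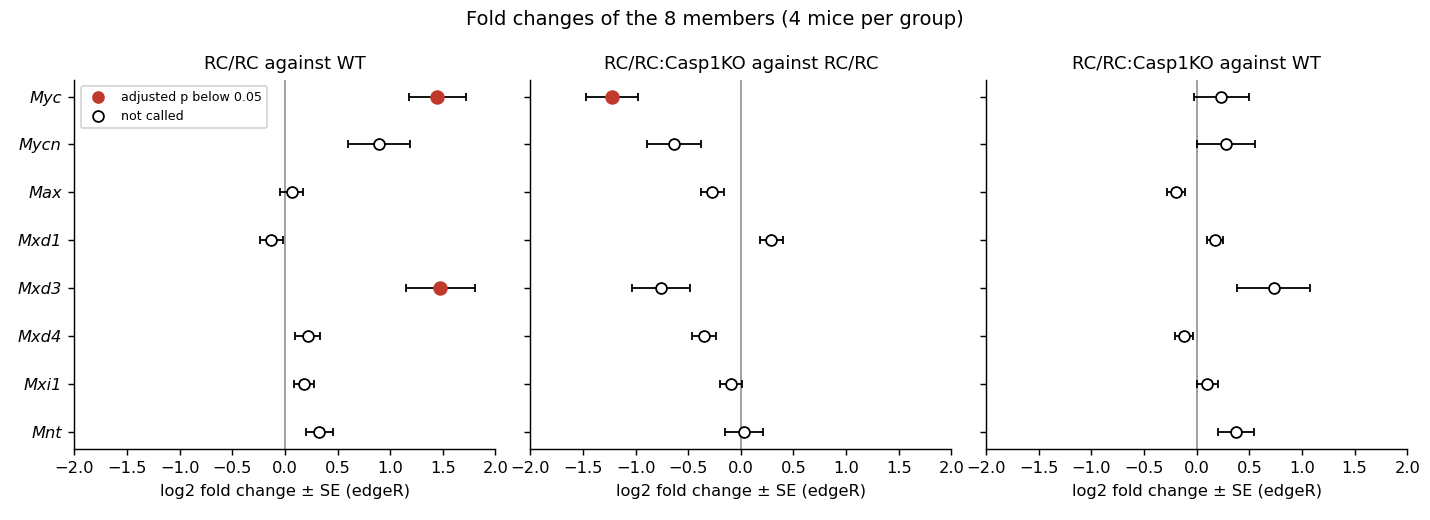
Log2 fold changes with standard errors for the 8 members in the 3 comparisons, with filled points for an adjusted p below 0.05. Filled points appear for Myc and Mxd3 in RC/RC against WT and for Myc in RC/RC:Casp1KO against RC/RC.

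Of the 5 further genes of the extended network (Mycl, Mga, Mlx, Mlxip and Mlxipl), 0 were called by edgeR in RC/RC against WT (1 lower at an unadjusted p under 0.05, which 29.2% of all genes passed) and 1 higher in RC/RC:Casp1KO against RC/RC, where 7.23% of all genes were called higher. That 1 was Mlxipl, which encodes ChREBP, the glucose-responsive activator of glycolytic and lipogenic genes that dimerizes with Mlx. Mlxipl was measured at 69.3, 73.9, 209 and 230 CPM in WT mice, in a low and a high pair. It stood at 69.0, 48.3, 50.7 and 81.0 CPM in RC/RC and at 147, 151, 181 and 229 CPM in RC/RC:Casp1KO mice. RC/RC:Casp1KO kidneys were above all RC/RC kidneys, with a log2 fold change of 1.49 and a standard error of 0.21 (edgeR adjusted p = 0.00539), and the call held without RC/RC mouse 2. Against WT, the RC/RC value was -1.23 (edgeR adjusted p = 0.0792), where the low WT pair overlapped the RC/RC range. Mlxip, the paralogous Mlx partner, had a log2 fold change of 0.35 in RC/RC:Casp1KO against RC/RC (edgeR adjusted p = 0.0656), and all of its RC/RC:Casp1KO mice were above all RC/RC mice. Mycl, the third Myc protein, was not called in any of the 3 comparisons, and its mean in RC/RC rested on RC/RC mouse 4, at 8.96 CPM against 2.36 to 3.39 CPM in the others of the group. Mga and Mlx were not called either.

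Of the 23 cofactors and turnover factors of Myc and Mxd proteins, 0 rose and 1 fell in RC/RC against WT, where 9.76% and 3.18% of all genes were called. The gene that fell was Hdac1, a histone deacetylase used by Sin3 complexes, which went from 63.7 ± 2.41 CPM in WT to 40.0 ± 3.91 CPM in RC/RC (log2 fold change -0.67, edgeR adjusted p = 0.00277). It was also below WT in RC/RC:Casp1KO kidneys, at 35.3 ± 3.53 CPM (-0.85, edgeR adjusted p = 0.00226). In that comparison Hdac1 was the only one of the 23 called, where 1.13% of all genes were called higher and 0.893% lower. Between RC/RC:Casp1KO and RC/RC, 3 of the 23 were called higher and 1 lower, where 7.23% and 4.41% of all genes were, so these counts are not read as a change of the list. Trrap, the scaffold of histone acetyltransferase complexes that binds Myc, rose by 0.82 (edgeR adjusted p = 0.00757). Huwe1, a ubiquitin ligase that acts on Myc and Mycn, rose by 0.76 (edgeR adjusted p = 0.0244). Ep400, the ATPase of a Trrap complex, rose by 0.52 (edgeR adjusted p = 0.0155). Ruvbl2, an ATPase of the same kind of complex, fell by 0.44 (edgeR adjusted p = 0.0465). Without RC/RC mouse 2 Ruvbl2 was not called, with a log2 fold change of -0.34 (edgeR adjusted p = 0.129).

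Few activated Myc targets were called. Of 32 listed genes, 1 rose and 1 fell in RC/RC against WT, near or below the 9.76% and 3.18% called among all genes. Ccnd2, which encodes cyclin D2, rose by 0.96 (edgeR adjusted p = 0.00733), from 20.4 ± 3.02 to 39.7 ± 8.76 CPM. Tfrc, the transferrin receptor, fell by 0.77 (edgeR adjusted p = 0.0348). Without RC/RC mouse 2 Tfrc was not called, with a log2 fold change of -0.67 (edgeR adjusted p = 0.0788). Here 23 of the 32 genes had a positive log2 fold change and the median was 0.08, against -0.02 over all genes tested. At an unadjusted p under 0.05, 6 were higher and 2 lower, and 29.2% of all genes passed in either direction. In RC/RC:Casp1KO against RC/RC, 0 of the 32 rose and 1 fell, against 7.23% and 4.41% of all genes. The gene that fell was Cdk4, the cyclin D partner kinase, with 86.1 ± 11.3 CPM in RC/RC and 63.8 ± 1.84 CPM in RC/RC:Casp1KO kidneys (log2 fold change -0.44, edgeR adjusted p = 0.0359). Cdk4 too was not called without RC/RC mouse 2, with a log2 fold change of -0.36 (edgeR adjusted p = 0.0893). In this comparison 26 of the 32 genes had a negative log2 fold change and the median was -0.24, against -0.03 over all genes tested. At an unadjusted p under 0.05, 12 of the 32 were lower and 1 was higher, where 4889 of the 15428 genes tested passed in either direction. Against WT, 0 of the 32 in RC/RC:Casp1KO kidneys were called by edgeR, where 1.13% of all genes were called higher and 0.893% lower. At an unadjusted p under 0.05, 1 was higher and 7 were lower, where 21.8% of all genes passed in either direction. There 24 of the 32 had a negative log2 fold change.

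The promoter window of Cdk4 held 4 copies of CACGTG, of which a stretch with a pair of them is printed because Cdk4 was the target called lower together with Myc.
Cdk4, chr10:127063387-127063452, plus strand, first E-box 118 bases before the start: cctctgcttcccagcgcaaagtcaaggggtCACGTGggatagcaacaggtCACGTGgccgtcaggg
RefSeq windows were matched for 26 of the 32 activated targets, and 9 of these held CACGTG. Of all windows 7.15% did, but this list was chosen as Myc targets. In RC/RC:Casp1KO against RC/RC, 8 of these 9 genes had a negative log2 fold change, with a median of -0.28. Of the 17 without it, 12 had a negative log2 fold change, with a median of -0.09. In RC/RC against WT the medians were 0.01 with and 0.09 without the letters. Over all genes tested the median was -0.03 in RC/RC:Casp1KO against RC/RC and -0.02 in RC/RC against WT. Whether genes with and without the letters differ was not tested.

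Of the 4 listed repressed targets, Cdkn2b rose and Ndrg1 fell in RC/RC against WT, where 9.76% of all genes were called higher and 3.18% lower. Cdkn2b encodes the cyclin-dependent kinase inhibitor p15 and went from 2.38 ± 0.824 CPM in WT to 6.98 ± 2.40 CPM in RC/RC kidneys (log2 fold change 1.55, edgeR adjusted p = 0.0132). Ndrg1, a stress- and hypoxia-responsive gene, fell by 0.99 (edgeR adjusted p = 0.0179). Without RC/RC mouse 2 Ndrg1 was not called, with a log2 fold change of -0.99 as before (edgeR adjusted p = 0.0510). In RC/RC:Casp1KO against RC/RC, 2 of the 4 fell and 0 rose, where 4.41% and 7.23% of all genes did. Cdkn2b was back at 2.79 ± 0.395 CPM (-1.33, edgeR adjusted p = 0.0179), and Cdkn1a, which encodes the inhibitor p21, was at 8.74 ± 3.85 CPM against 19.4 ± 6.52 CPM in RC/RC (-1.15, edgeR adjusted p = 0.0446). Without RC/RC mouse 2, Cdkn2b was still called lower (-1.07, edgeR adjusted p = 0.0425) and Cdkn1a was not (-0.89, edgeR adjusted p = 0.119). Cdkn2b was called higher and lower in the same comparisons as Myc. Ndrg1 was called lower where Myc was higher, and Cdkn1a was called lower where Myc was lower. Whether Myc acts on these genes in these kidneys was not tested. Against WT, 0 of the 4 were called by edgeR in RC/RC:Casp1KO kidneys, where 1.13% of all genes were called higher and 0.893% lower. At an unadjusted p under 0.05, 2 of the 4 were lower and 0 higher, where 21.8% of all genes passed in either direction.

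**Figure D4:**
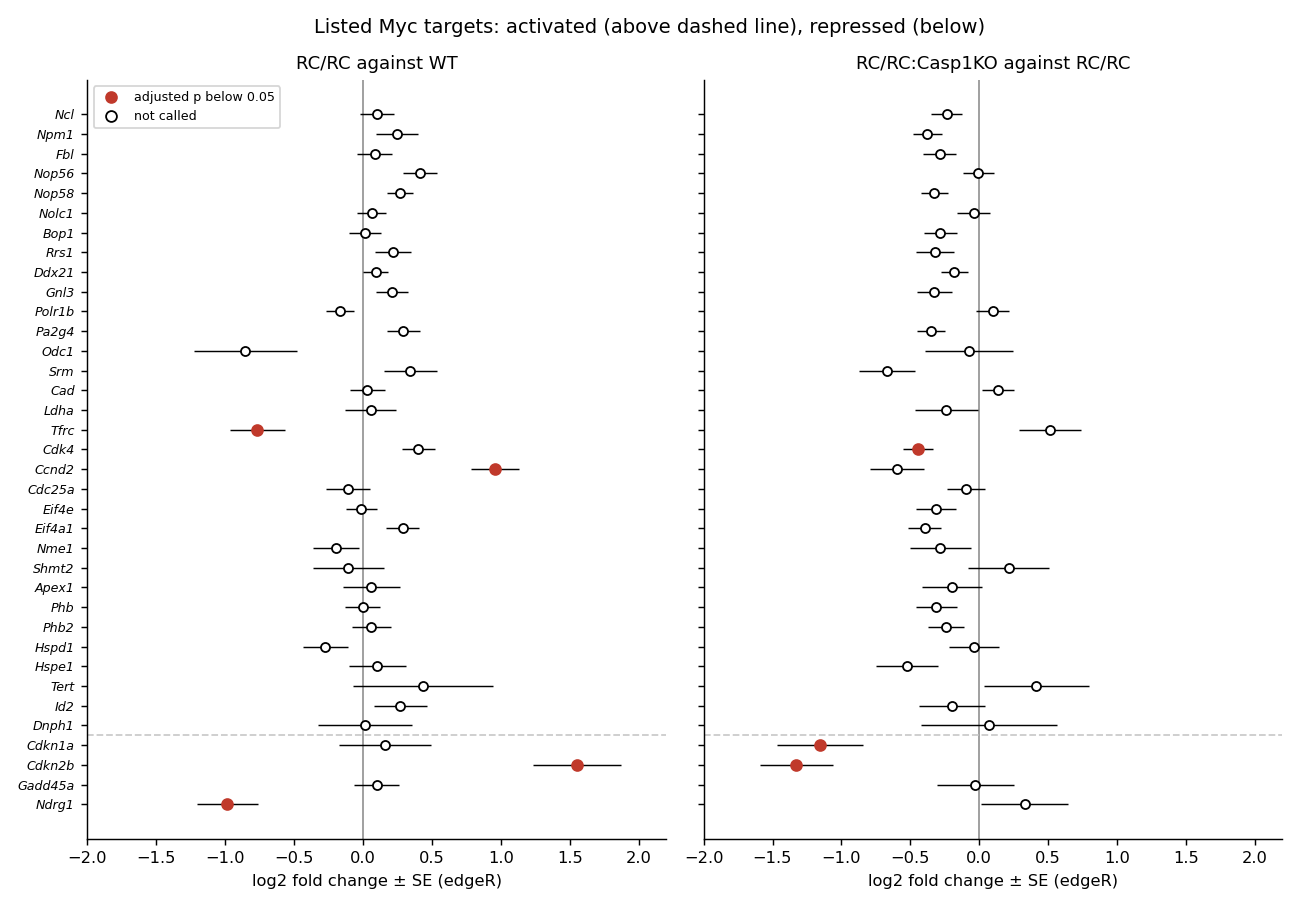
Log2 fold changes with standard errors for 32 activated and 4 repressed Myc targets in the comparisons that share the RC/RC mice, with filled points for an adjusted p below 0.05. Most open points of activated targets lie left of 0 in RC/RC:Casp1KO against RC/RC, where Cdk4 is the filled one.

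Some of the listed markers were called in the same comparisons as Myc, most broadly those of fibroblasts. The counts below stand against 9.76% of all genes called higher and 3.18% lower in RC/RC against WT, 7.23% and 4.41% in RC/RC:Casp1KO against RC/RC, and 1.13% and 0.893% in RC/RC:Casp1KO against WT. All 6 fibroblast markers were higher in RC/RC than in WT kidneys (5 of 6 without RC/RC mouse 2), and 4 of 6 were lower in RC/RC:Casp1KO than in RC/RC kidneys (2 of 6 without RC/RC mouse 2). Without that mouse, the call lost in the first was Pdgfra (log2 fold change 0.74, edgeR adjusted p = 0.0544). Those lost in the second were Col1a1 (-1.49, edgeR adjusted p = 0.0909) and Col3a1 (-1.36, edgeR adjusted p = 0.0834). The summed level of the fibroblast markers was 275, 204, 238 and 259 CPM in WT mice. It was 957, 1631, 903 and 676 CPM in RC/RC mice, and 287, 394, 277 and 569 CPM in RC/RC:Casp1KO mice. The collagen gene Col3a1 was the most abundant of them in every library. Of 7 leukocyte markers found in the table, 6 were higher in RC/RC than in WT and 0 were called by edgeR between RC/RC:Casp1KO and RC/RC. Without RC/RC mouse 2, 5 were higher than in WT, and Ms4a1 was not called (log2 fold change 1.25, edgeR adjusted p = 0.144). In RC/RC:Casp1KO against RC/RC, 1 of the 7 was lower at an unadjusted p under 0.05, which 31.7% of all genes passed in either direction. The sum of the leukocyte markers was 92.3, 96.1, 104 and 91.2 CPM in WT mice. It was 201, 155, 131 and 134 CPM in RC/RC mice, and 164, 156, 122 and 210 CPM in RC/RC:Casp1KO mice, with the macrophage receptor Csf1r most abundant. The sums overlapped between RC/RC and RC/RC:Casp1KO, but Csf1r made up most of their group means, and the B cell gene Cd79a was lower in every RC/RC:Casp1KO mouse than in every RC/RC mouse (log2 fold change -0.78, edgeR adjusted p = 0.116). The log2 fold changes of Cd3e and Cd68 were -0.91 and -0.63 (edgeR adjusted p = 0.213 and 0.179), and that of Ms4a1 was -0.48, whereas Csf1r, Itgax and Ptprc had 0.15, 0.14 and 0.10.

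Cycling markers were higher in RC/RC than in WT for 4 of 6 genes, with sums of 66.3, 67.4, 62.3 and 55.8 CPM in WT mice against 112, 104, 91.3 and 85.8 CPM in RC/RC mice. In RC/RC:Casp1KO mice the sums were 64.8, 76.5, 50.6 and 82.2 CPM, and only Pcna, the replication clamp and the most abundant of the 6, was called lower than in RC/RC. Pcna was the largest part of these sums. All 6 had a negative log2 fold change in RC/RC:Casp1KO against RC/RC (median -0.55), from -0.82 for Cdk1 to -0.09 for Mki67, and 3 of the 6 were lower at an unadjusted p under 0.05, which 31.7% of all genes passed. At the same threshold, 4 of the 6 were higher and Pcna was lower in RC/RC:Casp1KO than in WT, where 21.8% of all genes passed. No marker of these lists was at 0 in any mouse. Of 5 endothelial markers, 0 were called by edgeR in any of the 3 comparisons, although at an unadjusted p under 0.05 there were 2 higher in RC/RC than in WT and 3 lower in RC/RC:Casp1KO than in RC/RC, where 29.2% and 31.7% of all genes passed in either direction. Of 8 kidney identity genes, 2 were called lower in RC/RC than in WT (Slc12a3, the thiazide-sensitive cotransporter, and the podocyte gene Nphs1) and 2 higher in RC/RC:Casp1KO than in RC/RC (Slc12a3 and the endocytic receptor Lrp2). Without RC/RC mouse 2, the higher Slc12a3 in RC/RC:Casp1KO was no longer called (1.28, edgeR adjusted p = 0.110), and the other 3 of these calls held. At an unadjusted p under 0.05, 6 of the 8 kidney identity genes were lower and 1 higher in RC/RC than in WT (median log2 fold change -0.64). In RC/RC:Casp1KO against RC/RC, 3 of the 8 were higher and 1 lower at that threshold. Of all genes, 29.2% and 31.7% passed in these comparisons, in either direction. Against WT, RC/RC:Casp1KO kidneys had 1 fibroblast marker, Dcn, and 1 cycling marker, Top2a, called higher. Of 6 leukocyte markers tested there, 0 were called, but 5 were higher and 0 lower at an unadjusted p under 0.05. Their median log2 fold change was 1.06. Of the 6 fibroblast markers, 3 were higher and 1 lower at that threshold, which 21.8% of all genes passed in either direction.

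The share of reads from mitochondrial genes also differed among the RC/RC libraries, at 8.68, 12.1, 11.6 and 9.37%, with the high values in mice 2 and 3, the mice with high Myc. In WT mice the shares were 9.85, 9.96, 9.37 and 10.6%, and in RC/RC:Casp1KO mice 7.78, 9.55, 10.4 and 8.58%, where the highest share of each group was in the mouse with the lowest Myc and the other mice followed no such order. The parts that these cell markers, mitochondrial shares and the adipose signal of RC/RC mouse 2 have in the Myc differences were not tested. In kidney tissue, a change in the number of cells that express Myc and a change in Myc RNA per cell cannot be told apart.

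**Figure D5:**
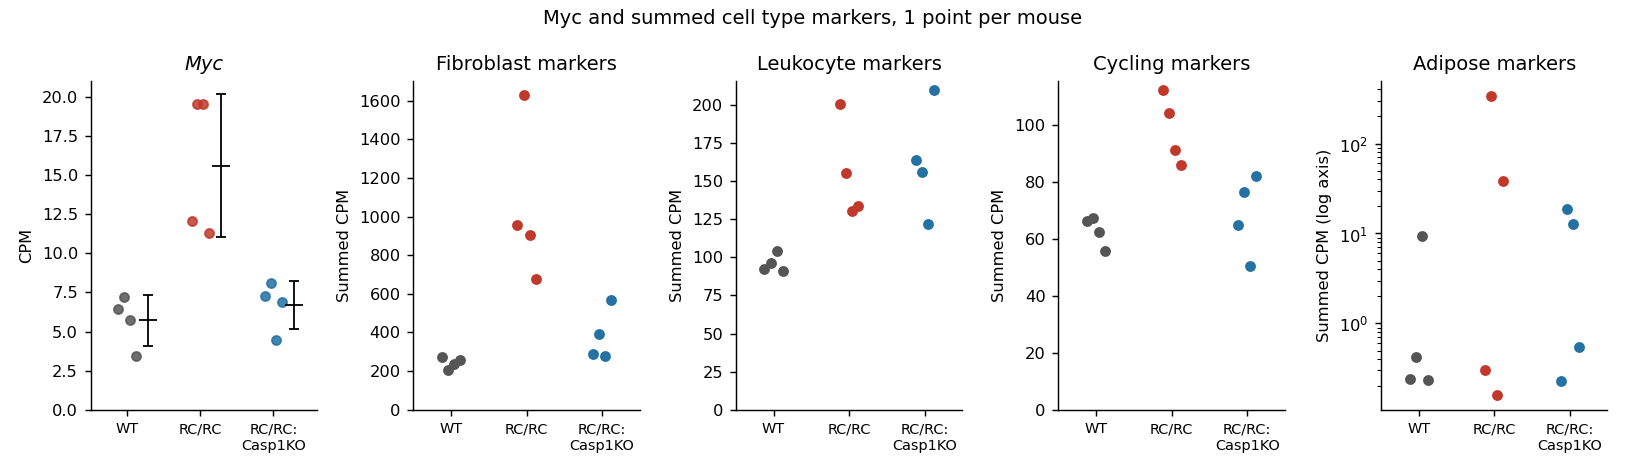
CPM of Myc and the summed CPM of the fibroblast, leukocyte, cycling and adipose markers, with 1 point per mouse, mean and SD for Myc, and a log axis for the adipose panel only. Fibroblast sums lie between 676 and 1631 CPM in RC/RC mice, above all other mice, and the adipose panel shows RC/RC mouse 2 at 338 CPM.

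Genes with a pattern like that of Myc were ranked by Pearson's r of log2(CPM + 0.5) over the 12 mice, among 14164 other genes with a mean of at least 1 CPM. These values describe 12 libraries that share group, depth and processing, and the highest of so many are given without a p. The 5 highest were Rps6ka4, a stress-activated kinase (r = 0.988), the Wnt effector Lef1 (r = 0.976), the endothelial transcription factor Sox7 (r = 0.975), Myd88, the adaptor of Toll-like and interleukin-1 receptors (r = 0.973), and Tmem88 (r = 0.972). Computed on deviations from the group means, r was between 0.891 and 0.968 for these 5 genes. Myd88 averaged 12.8 ± 1.73 CPM in WT, 20.6 ± 2.89 in RC/RC and 14.1 ± 1.79 in RC/RC:Casp1KO kidneys, and Rps6ka4 averaged 35.4 ± 3.50, 48.5 ± 4.97 and 37.0 ± 1.54 CPM in the same order. The 3 lowest were Ryr2 (r = -0.959), Pcsk5 (r = -0.958) and Glb1l (r = -0.954).

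None of the other members was among the genes with the highest r. Mxd4 came closest with r = 0.792, at rank 1065 of 14164. Mxd3 (r = 0.623), Max (r = 0.618) and Mycn (r = 0.595) were at ranks 2577, 2631 and 2821. Mxi1 had r = 0.399 and Mnt r = 0.139, and Mxd1 was the only member with a negative value, r = -0.458. On deviations from the group means, Max (r = 0.778) and Mxd4 (r = 0.654) kept positive values, Mycn was near 0 (r = -0.0610), and Mxd3 (r = -0.477), Mnt (r = -0.368) and Mxi1 (r = -0.129) turned negative. Mxd1 turned positive (r = 0.160).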

How the data were processed

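RNA was taken from kidney tissue of 12 mice, libraries were made after poly-T selection, and sequencing was done by a company. The submitters' processing notes name CASAVA 1.8, STAR and mm10. The counting tool, annotation release and strand setting are not given in the sources used here. The authors deposited 1 table with raw read counts per gene and mouse, gene coordinates and gene lengths (other columns, in base pairs). Its columns of FPKM, group means and the authors' own test results (fold changes, p-values) were not used.

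Counts were tested with edgeR 4.0.16 (R 4.3.3) by the quasi-likelihood test for each pair of groups (8 mice), with TMM factors, filterByExpr and Benjamini-Hochberg adjustment over all genes tested, and a gene was called at an adjusted p below 0.05. CPM used TMM factors of all 12 libraries and FPKM the counts, gene lengths and reads counted. Alternatives were DESeq2 1.42.0, RLE or library-size scaling, filters of at least 1 count or of 10 counts in every mouse, 1 fit of 12 mice, limma 3.58.1 on log2(FPKM + 1) and dropping single mice. Transcripts were compared with BLAST 2.17.0. The tests were tried on simulated data with 200 changed genes. The simulated libraries were drawn independently, with the same spread between mice set for every gene. That trial therefore does not cover the pairs seen within groups. Replicates differed by more than sampling noise in every pair (chi-square divided by its degrees of freedom, 15.7 to 128). Depth ranged from 18019819 to 24869454 reads, and counting error was largest for Mxd3. Nothing states whether samples of a group shared litters, so p-values measure the spread between these mice.

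The text names all 8 members, the 5 extended network genes, Casp1 and Pkd1, up to 3 called genes per direction of each cofactor or target list, summed marker lists with their most abundant gene, and the 5 genes most and 3 least like Myc. Called marker genes and the values quoted for genes like Myc were picked after their values were seen. The members and lists were chosen with earlier results of these data known. The leukocyte list had 8 genes, of which Adgre1 was not matched in the table. Adrenal markers were the other list, with sums from 2.40 to 5.39 CPM and Star most abundant in every library.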

Additional observations from a re-analysis of the deposited data

Results flagged for a closer look

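In RC/RC kidneys, Mycl in RC/RC mouse 4 was at 8.96 CPM, far from the other 3 mice of the group, of which the nearest was at 3.39 CPM and the lowest at 2.36 CPM. In WT kidneys, Casp1 in WT mouse 1 was at 2.05 CPM, with the nearest mouse at 1.41 CPM and the lowest at 1.29 CPM. Both stood out by the gap to the nearest mouse divided by the range of the group, 0.845 for Mycl and 0.833 for Casp1, both above Dixon's critical value for 4 samples. Of 45 gene and group combinations looked at (the 8 members, the 5 extended network genes, Casp1 and Pkd1), 2 stood out, and chance alone gives about 1 in 20. No value of the 8 members stood out in this way.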

How the results depend on the processing

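No paired analysis was possible because the count columns carry mouse numbers and not the labels' replicate numbers. The higher Myc in RC/RC than in WT passed under all 7 other settings and all 8 fits that left out 1 mouse (log2 fold changes of 1.26 to 1.58). The lower Myc in RC/RC:Casp1KO than in RC/RC passed under all 7 other settings, and ranged from -1.35 to -1.07 when 1 mouse was left out, where it was lost without RC/RC mouse 2 or 3. The number of members called in RC/RC against WT was 2, 3 with DESeq2 and in the fit of all 12 mice, which added Mycn, and 1 where every mouse had to have at least 10 counts, a filter that removes Mxd3. Among all genes, the main fit called 1487 higher and 484 lower of 15243. DESeq2 called 1997 and 1021 of 18264, and the fit of all 12 mice 1789 and 861 of 15875. The filter left 1121 and 349 of 13730. With 1 mouse left out the number of members called ranged from 1 to 3. The number called in RC/RC:Casp1KO against RC/RC was 1, and 2 with DESeq2 and in the fit of all 12 mice, which added Mxd4. Among all genes, the main fit called 1116 higher and 681 lower of 15428. DESeq2 called 1756 and 1426 of 17556, and the fit of all 12 mice 1118 and 896 of 15875. With 1 mouse left out the number of members called ranged from 0 to 2. Leaving out 1 mouse gave Max log2 fold changes of -0.0048 to 0.13 in RC/RC against WT and Mnt of -0.076 to 0.17 in RC/RC:Casp1KO against RC/RC. In RC/RC:Casp1KO against WT, Mxd4 turned from -0.12 to 0.010 with library size alone, which moved the median of all genes from 0.01 to 0.14, and to 0.0063 with limma. The cause of these changes was not tested. The list counts without RC/RC mouse 2 were added after seeing the data. Depth limits Mxd3 most, with 8 to 51 reads per library.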
